A study of Gallus gallus with 32 samples.

Results

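The prolactin axis was followed through 5 genes in 16 male chickens: VIP, its receptors VIPR1 and VIPR2, the dopamine receptor DRD2 and the prolactin receptor PRLR. The members were chosen by gene symbol: 6 symbols were looked up in the deposited gene annotation and 5 were found, of 24881 genes in the count table. The hormone gene itself, PRL, was not matched to a symbol and is not analysed here. Hypothalamus and pituitary gland were sequenced from each bird, which gives 32 libraries of bulk RNA. The birds were ROSS308 cockerels, a fast-growing broiler line, slaughtered at 6 or 3 weeks of age, and at each age 4 had a low growth rate (LGR, labelled light) and 4 a high growth rate (HGR, labelled heavy). Birds of one age shared diet, light and temperature, but diets were changed as the birds grew, so that diet and age cannot be told apart. By the study's methods lighter and heavier birds were kept in different pens, so that the part of the pen cannot be told apart from that of growth rate.

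In birds, vasoactive intestinal peptide (VIP) from neurons of the infundibular hypothalamus is the main releasing factor for prolactin, a hormone best known for egg incubation and broodiness. VIP binds VIPR1 and VIPR2, receptors that couple to G proteins and raise cyclic AMP, while dopamine holds back lactotrophs, the prolactin cells of the pituitary, through DRD2. Prolactin acts on its targets through PRLR, a cytokine receptor that signals through JAK2 and STAT5 and induces feedback inhibitors such as CISH and SOCS2.

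By the coordinates of the deposited annotation, which names no genome build, VIP (ENSGALG00000013604) lies on chromosome 3 from 49646763 to 49653486. VIPR1 (ENSGALG00000005259) lies on chromosome 2 from 1742703 to 1846900, and VIPR2 (ENSGALG00000006575) on the same chromosome from 9667074 to 9717822. DRD2 (ENSGALG00000007794) lies on chromosome 24 from 5726541 to 5731611 and PRLR (ENSGALG00000003446) on the Z sex chromosome from 10611245 to 10678470. Late-feathering chickens carry a partly duplicated PRLR next to the normal one on this chromosome. Reads from such a copy cannot be told apart from those of PRLR in the counts, and the feathering type of the birds is not given in the sources used here.

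Levels are given as CPM, read counts scaled to the depth of their library with the TMM factors of edgeR over all 32 libraries. CPM is not corrected for transcript length, so that levels are compared between samples and not between genes. The libraries held between 6231478 and 18256297 counts in the pituitary and between 13845756 and 17536175 in the hypothalamus. A pituitary library stood apart, LGR 3-week-old replicate 4, which had 6231478 counts against at least 14351918 in the other 15 pituitary libraries. It had counts for 16447 genes against 17708 to 18373, and the summed level of 8 pituitary hormone and lineage markers was 168866 CPM against 61202 to 119459 CPM. In the hypothalamus LGR 3-week-old replicate 1 stood apart, with 22.0% mitochondrial counts against 6.75% to 12.1% in the other 15 and the lowest sum of neuronal and glial markers, 4967 CPM against 6034 to 9980 CPM. The tissue labels were checked on markers: all 8 pituitary markers with values were higher in the pituitary and all 9 neuronal and glial markers were higher in the hypothalamus, among them GAD2 and SNAP25. The study dropped some hypothalamus samples after clustering, the labels do not say which, and all 16 were kept here, so that the hypothalamus values include samples the study did not use. In bulk tissue, fewer cells of a type and less RNA per cell cannot be told apart.

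Between the tissues, VIPR1, DRD2 and PRLR were higher in the pituitary, and VIP and one of its receptors, VIPR2, were lower there than in the hypothalamus. All 5 members were called, 3 higher and 2 lower in the pituitary, in the quasi-likelihood test of edgeR over the 32 libraries. VIP and VIPR2 were too low to be tested within the pituitary. They passed the filter on low counts of this test through the hypothalamus, so that their direction was in part set by the filter. A gene was called where its p, adjusted by the Benjamini-Hochberg method, did not exceed 0.05 and its fold change reached 1.5. In the same comparison 53.5% of the 16169 genes tested were called. The 5 calls were also made at 6 weeks alone, where 53.2% of genes were called, and at 3 weeks alone, with 51.6%. Growth rate and age gave no call for a member, as described gene by gene below.

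**Figure D1:**
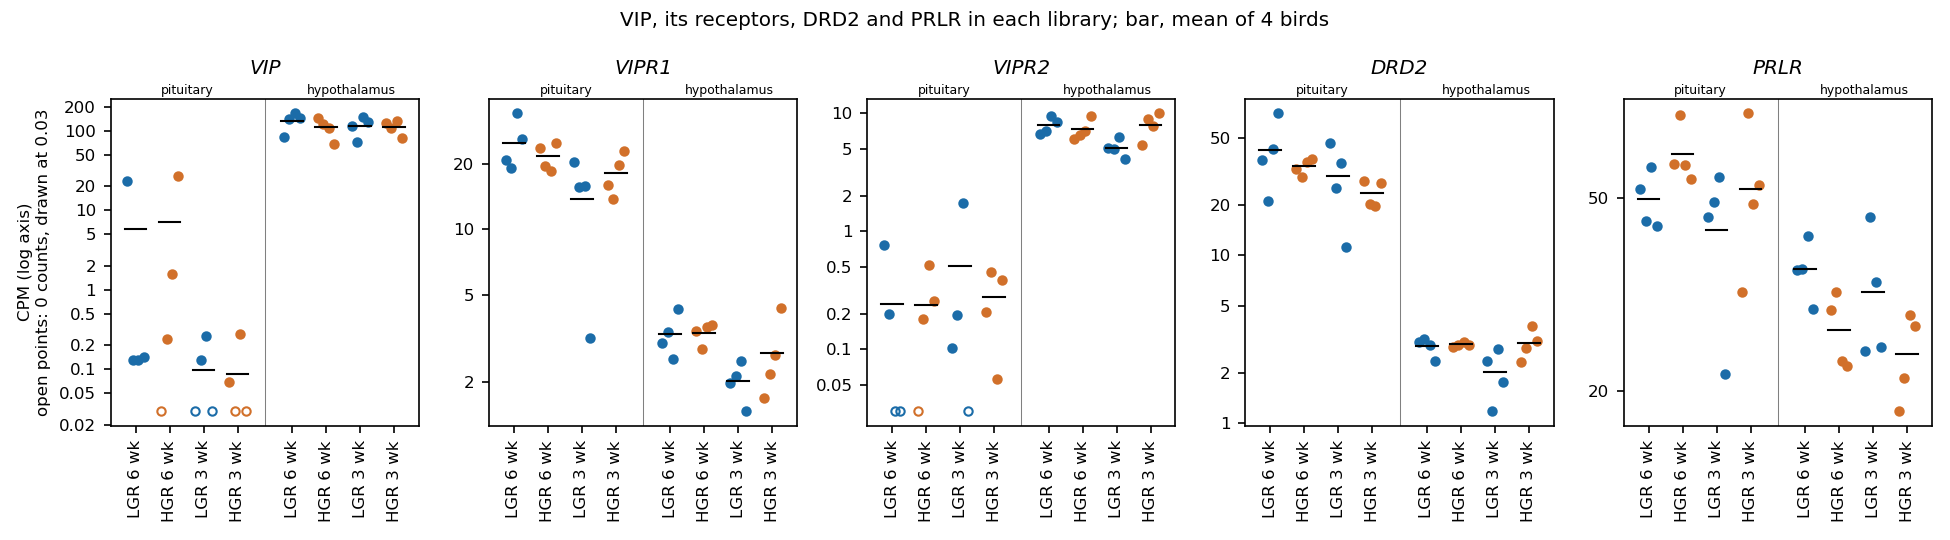
CPM (log axis) of VIP, VIPR1, VIPR2, DRD2 and PRLR in each of the 32 libraries, by tissue, age and growth rate (blue, LGR; orange, HGR), with the mean of 4 birds as a bar and open points for 0 counts. VIP and VIPR2 sit higher in the hypothalamus, VIPR1, DRD2 and PRLR in the pituitary, and 2 pituitary libraries of 6-week-old birds hold VIP at 27.0 and 23.1 CPM.

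VIP was read in every hypothalamus, at 69.4 to 166 CPM. In 6-week-old birds it had 83.0, 142, 166 and 145 CPM in LGR birds, against 145, 124, 109 and 69.4 CPM in HGR birds. In 3-week-old birds it had 115, 73.2, 148 and 129 CPM in LGR birds, against 128, 109.6, 135 and 81.4 CPM in HGR birds. Each of the 4 groups ran over nearly the same range, and LGR and HGR birds overlapped at both ages. The means at 6 weeks were 134 ± 35.7 CPM for LGR and 112 ± 32.01 CPM for HGR (SD, n = 4 each). The LGR over HGR log2 fold change was 0.27 (SE 0.24) at 6 weeks with an adjusted p of 0.604 in edgeR, and 0.06 (SE 0.21) at 3 weeks with an adjusted p of 0.986. Between the ages, 6-week-old birds averaged 123 ± 33.6 CPM and 3-week-old birds 115 ± 26.0 CPM (SD, n = 8 each). The log2 fold change was 0.10, and its interval of 2 SE ran from −0.26 to 0.45.

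In the pituitary, VIP was near 0 in most birds and high in 2 of them. At 6 weeks LGR birds had 421, 2, 2 and 2 counts, and HGR birds had 0, 4, 28 and 526 counts. At 3 weeks LGR birds had 0, 2, 4 and 0 counts, and HGR birds had 1, 0, 5 and 0 counts. The 2 libraries with the most reads, LGR 6-week-old replicate 1 and HGR 6-week-old replicate 4, held VIP at 23.1 and 27.0 CPM, which is 19.5% and 22.7% of the mean over the hypothalamus libraries. The other 14 pituitary libraries ranged from 0 to 1.60 CPM. The gene was too low in most libraries to pass the filter on low counts of the pituitary fits, so that it was tested there as a single value. The difference between 6 and 3 weeks was 2.35 on the log2 CPM scale with a prior count of 2 (two-sided exact permutation test, p = 0.0444, n = 8 each). Without those 2 libraries it was 0.79 (p = 0.160, exact permutation test, n = 6 and 8). For growth rate, LGR minus HGR on this scale was −0.59 at 6 weeks (exact permutation p = 0.800) and 0.083 at 3 weeks.

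The same 2 pituitary libraries held other genes of hypothalamic neurons above all of the other 14. GHRH, the releasing hormone for growth hormone, had 36.0 CPM in LGR replicate 1 and 16.3 CPM in HGR replicate 4, against 0.609 to 2.06 CPM in the other 14. These levels are 68.6% and 31.1% of the mean of the hypothalamus. GAD2, which makes the transmitter GABA, had 7.86 and 5.07 CPM in the same order, against at most 2.46 CPM, but this was only 2.97% and 1.91% of its hypothalamus mean. DRD3, DDC (the decarboxylase of dopamine synthesis) and BSX, a transcription factor of the infundibular hypothalamus, were also above all other pituitary libraries in both. The other matched dopamine genes, DRD1, DRD4, DRD5 and SLC18A2, were not, nor were GCGR, GHRHR and GLP1R of the family of VIP and GHRH. Among fixed marker lists, 1 of 9 neuronal and glial markers with values (GAD2) and 2 of 8 infundibular markers (BSX and GHRH) were above all others in both. Of these 8, POMC, NR5A1, TBX3 and ISL1 stood above their hypothalamus mean in both libraries, so that they cannot mark hypothalamic tissue there. NKX2-1 had 6.16 CPM in LGR replicate 1 and 4.46 CPM in HGR replicate 4, against 0 to 5.08 CPM (median 0) in the other 14. NPY, of both lists, had 54.3 and 36.8 CPM in the same order, inside the 5.99 to 67.1 CPM of the other 14. Of the 16169 genes of the tissue comparison, 204 (1.26%) were above all other pituitary libraries in both. SNAP25, a protein of all nerve terminals, stood at 6.62% and 6.90% of its hypothalamus mean and inside the range of the other 14, and GFAP, TRH and CRH were not above it in both. In the same 2 birds the hypothalamus had the lowest VIP of its group. It was 83.0 CPM in LGR replicate 1 and 69.4 CPM in HGR replicate 4. Their infundibular marker sums in the hypothalamus, 169 and 121 CPM, were the lowest of their groups too. HGR 3-week-old replicate 4 was also the lowest of its group in both (81.4 and 153 CPM), with 0 VIP counts in the pituitary. Hypothalamic tissue in these 2 pituitary samples was not tested apart from these markers, nor was a link between the tissues of a bird.

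**Figure D2:**
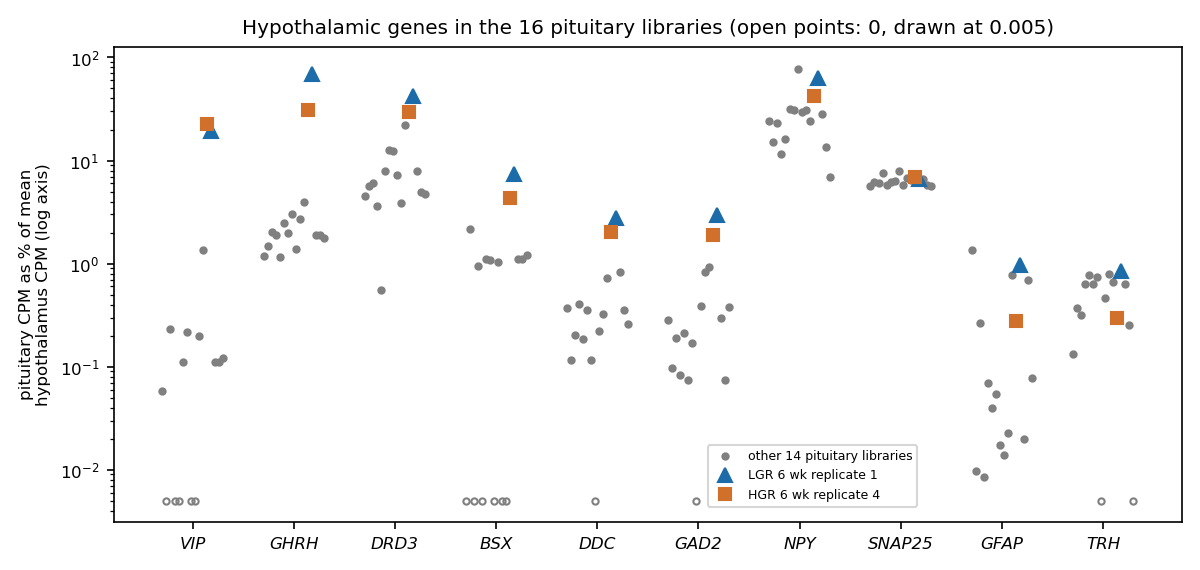
Level of VIP and 9 other hypothalamic genes in the 16 pituitary libraries, as a percent of each gene's mean CPM over the 16 hypothalamus libraries (log axis; open points, 0 counts). In LGR 6-week-old replicate 1 (triangle) and HGR 6-week-old replicate 4 (square) VIP stood at 19.5% and 22.7% and GHRH at 68.6% and 31.1%, while SNAP25, GFAP and TRH lay within or close to the other 14 libraries.

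Every pituitary library was below every hypothalamus library for VIP. The libraries of the tissues were likewise fully apart, in either direction, for 31.5% of the 16169 genes tested, which stands beside this separation and those of VIPR2 and DRD2. The pituitary over hypothalamus log2 fold change was −7.12 (SE 0.68, adjusted p = 1.34e-10, edgeR), and −9.38 without the 2 libraries named above. Since several pituitary libraries had 0 counts, the size of this value depends on the prior count and is given as a direction with its raw counts above. That direction was in part set by the filter, which VIP passed through the hypothalamus. The log2 fold change was −4.19 at 6 weeks and −10.06 at 3 weeks. The difference of the age effect between the tissues was 5.87 (SE 1.498), which did not pass in edgeR (adjusted p = 0.227) and passed in DESeq2 (5.98, adjusted p = 0.0219). Without the 2 libraries it was 1.38 (SE 0.96, adjusted p = 0.99998 in edgeR). In edgeR 0.00618% of all genes were called in this comparison, and no member was.

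VIPR1, the VIP receptor that was more abundant in the pituitary, was read there at 18.4 to 33.9 CPM in 6-week-old birds. LGR birds had 20.8, 19.0, 33.9 and 25.8 CPM, against 23.5, 19.5, 18.4 and 25.0 CPM in HGR birds. The LGR birds of 3 weeks had 20.2, 15.7, 15.8 and 3.20 CPM, against 15.9, 13.7, 19.8 and 22.8 CPM in HGR birds. The lowest value, 3.20 CPM from 14 counts, was that of the shallow library, and the groups overlapped at both ages. In the hypothalamus VIPR1 had 3.03, 3.39, 2.56 and 4.32 CPM in LGR birds of 6 weeks, against 3.42, 2.84, 3.59 and 3.66 CPM in HGR birds. In 3-week-old birds the level was 1.99, 2.14, 2.50 and 1.48 CPM in LGR birds, against 1.70, 2.20, 2.68 and 4.39 CPM in HGR birds. Again the growth rate groups overlapped, and the highest single value was that of HGR 3-week-old replicate 4. That library stood apart from the other HGR hypothalami of its age, with infundibular markers at 153 CPM against 309 to 381 CPM. Its thalamus markers summed to 150 CPM, against 38.7 to 68.7 CPM. HGR 6-week-old replicate 4 likewise had the lowest infundibular sum of its group, 121 CPM, and the highest thalamus sum, 202 CPM. In both libraries VIP was the lowest and VIPR2 the highest of the group. Libraries of LGR birds did not all show this. LGR 6-week-old replicate 1 had the lowest infundibular sum of its group, 169 CPM, with the lowest VIP (83.0 CPM) and also the lowest VIPR2 (6.68 CPM). LGR 3-week-old replicate 2 had the highest infundibular sum of its group, 679 CPM, with the lowest VIP (73.2 CPM). The part of dissection was not tested.

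Over the birds, VIPR1 was 6.81-fold higher in the pituitary (log2 fold change 2.77, SE 0.16, adjusted p = 3.66e-15, edgeR), and higher there in 16 of 16 birds, although the lowest pituitary library fell within the range of the hypothalamus. VIPR1 had higher means at the later age in both tissues. In the pituitary it averaged 23.2 ± 5.13 CPM at 6 weeks and 15.9 ± 5.95 CPM at 3 weeks (SD, n = 8 each). In the hypothalamus it averaged 3.35 ± 0.548 CPM at 6 weeks and 2.38 ± 0.897 CPM at 3 weeks. All 8 birds of 6 weeks lay above the 3-week mean in each tissue, and the ages overlapped. The share of all genes with every bird on the same side of the other group's mean was not counted, here or below. The log2 fold changes were 0.53 (SE 0.24, adjusted p = 0.459, edgeR) in the pituitary and 0.51 (SE 0.19, adjusted p = 0.124, edgeR) in the hypothalamus, so that neither was called. Leaving out each hypothalamus library in turn, only the fit without HGR 3-week-old replicate 4 called VIPR1, at 0.67 (adjusted p = 0.0222, edgeR). The number of all genes called also moved over these fits, as given below. Without the shallow library the pituitary value was 0.39. With age 0.0262% of the genes tested were called in the pituitary and 0.623% in the hypothalamus. Within LGR birds the age values of VIPR1 were 0.81 (SE 0.34, or 0.52 without the shallow library) in the pituitary and 0.70 (SE 0.27) in the hypothalamus, and within HGR birds 0.26 (SE 0.34) and 0.31 (SE 0.26). No member was called in these fits, where 0.00654% of genes were called within LGR birds and 0.00654% within HGR birds in the pituitary, and 0.642% within LGR birds in the hypothalamus. Markers of other cells moved with age in the same hypothalamus libraries. The blood markers HBAD (−2.38) and HBAA (−1.90), both of the 2 matched, were called lower at 6 weeks (adjusted p = 0.00329 each, edgeR). They summed to 53.3 to 157 CPM in LGR and 66.1 to 122 CPM in HGR birds of 6 weeks, against 229 to 686 CPM and 193 to 468 CPM at 3 weeks. The 7 pituitary markers tested had a median log2 fold change of −1.64, with none called. In the pituitary HBAD (−1.28) and HBAA (−0.94) were not called. The part of blood and pituitary cells in the age values was not tested.

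For growth rate, the log2 fold changes of VIPR1 in the pituitary were 0.21 (SE 0.19) at 6 weeks and −0.35 (SE 0.43) at 3 weeks, with adjusted p-values of 0.850 and 0.963 in edgeR. Without the shallow library the value at 3 weeks was −0.064 (SE 0.19). In the hypothalamus they were −0.02 (SE 0.20) and −0.42 (SE 0.32), with adjusted p-values of 0.977 and 0.892 in edgeR. These standard errors leave differences of the size of the fold threshold within 2 SE at 3 weeks. At 6 weeks the intervals of 2 SE ran from −0.17 to 0.58 in the pituitary and from −0.41 to 0.38 in the hypothalamus. The upper end in the pituitary lay just under the threshold. With so few birds 2 SE is a rough limit, so that a difference of that size is not excluded there.

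VIPR2, the other VIP receptor, was the mirror of VIPR1 between the tissues. In the hypothalamus it had 6.68, 7.06, 9.47 and 8.44 CPM in LGR birds of 6 weeks, against 6.10, 6.56, 7.12 and 9.43 CPM in HGR birds. In the younger birds it had 5.12, 4.98, 6.30 and 4.10 CPM in LGR birds, against 5.35, 8.92, 7.83 and 10.0 CPM in HGR birds. At 6 weeks the groups covered the same range, while at 3 weeks all 4 LGR birds lay below the HGR mean and only HGR replicate 1 reached into their range. In the pituitary it had 0 to 27 counts a library. It was lower in the pituitary in 16 of 16 birds, with no overlap (log2 fold change −4.43, SE 0.34, adjusted p = 1.62e-12, edgeR). VIPR2 passed the filter of this comparison through the hypothalamus, so that its direction was in part set by the filter. With 0 counts in some pituitary libraries, the size of the value depends on the prior count. The highest pituitary value was 1.75 CPM, from the 27 counts of LGR 3-week-old replicate 3.

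VIPR2 in the hypothalamus of 3-week-old birds averaged 5.13 ± 0.905 CPM for LGR and 8.02 ± 1.99 CPM for HGR (SD, n = 4 each). Its log2 fold change of −0.63 (SE 0.22) had an unadjusted p of 0.0180 and an adjusted p of 0.789 in edgeR, and the exact permutation test gave p = 0.0571, where 4 against 4 birds allow no p under 0.0286. Without the library rich in mitochondrial counts, LGR replicate 1, it was −0.63 (SE 0.26). At 6 weeks the means were 7.91 ± 1.29 CPM in LGR birds and 7.30 ± 1.48 CPM in HGR birds, and the log2 fold change was 0.13 (SE 0.17, adjusted p = 0.747, edgeR). The change with age was 0.62 (SE 0.21, adjusted p = 0.0999, edgeR) in LGR birds and −0.13 (SE 0.20, adjusted p = 0.927, edgeR) in HGR birds. Their difference of 0.75 (SE 0.29, adjusted p = 0.858, edgeR) did not pass, and 0.00649% of genes did.

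Summed levels of marker lists were set beside these values. The infundibular list holds POMC, NPY, BSX and TBX3, which the paper reports as higher in LGR birds. All genes of this list with values, except ISL1, are among those the paper lists as differing with growth rate. CGA of the pituitary list is too. The infundibular sum is therefore not independent of the study's results, and a difference in it cannot tell dissection from growth rate. POMC is also in the pituitary list, so that these 2 sums are not independent. No single marker of the infundibular, pituitary, thalamus or neuronal and glial lists was called at 3 weeks, where 0% of all genes were. The sums that follow are first those of the same 3-week libraries. The 8 infundibular markers summed to 476 to 679 CPM in LGR birds, against 153 to 381 CPM in HGR birds, without overlap, where 3.34% of single genes tested had groups apart. The pituitary markers summed to 349 to 964 CPM in LGR birds, against 74.8 to 400 CPM in HGR birds. The 4 thalamus markers summed to 29.7 to 94.0 CPM in LGR birds, against 38.7 to 150 CPM in HGR birds. The 9 neuronal and glial markers summed to 4967 to 7596 CPM in LGR birds, against 6636 to 9980 CPM in HGR birds. At 6 weeks these summed to 6034 to 8765 CPM in LGR birds, against 8547 to 9392 CPM in HGR birds. The infundibular markers then summed to 169 to 451 CPM in LGR birds, against 121 to 263 CPM in HGR birds, and the pituitary markers to 59.8 to 526 CPM in LGR birds, against 38.99 to 229 CPM in HGR birds. The thalamus markers of that age summed to 29.7 to 34.6 CPM in LGR birds, against 54.9 to 202 CPM in HGR birds, and 2 of the 4, TCF7L2 and GBX2, were called lower in LGR birds. The paper already names TCF7L2 and GBX2 as higher in the hypothalamus of older HGR birds, so that this list is not independent of the study's results either. The part of dissection in the values of the hypothalamus was not tested.

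DRD2, the receptor by which dopamine restrains lactotrophs, had 36.7, 21.0, 42.6 and 69.9 CPM in the pituitary of LGR birds of 6 weeks, against 32.7, 29.4, 35.7 and 37.4 CPM in HGR birds. The 3-week-old birds had 46.7, 25.2, 35.5 and 11.2 CPM in LGR birds, against 27.7, 20.3, 19.7 and 26.8 CPM in HGR birds. LGR birds were scattered on both sides of the HGR birds at 6 weeks. At 3 weeks only the shallow library, at 11.2 CPM, lay below the HGR birds. The SD of LGR birds was 20.4 CPM at 6 weeks and, with the shallow library, 15.1 CPM at 3 weeks, against 3.52 and 4.20 CPM in HGR birds. The LGR over HGR log2 fold change was 0.33 (SE 0.29, adjusted p = 0.848, edgeR) at 6 weeks and 0.35 (SE 0.36, adjusted p = 0.963, edgeR) at 3 weeks. At 6 weeks it was −0.01 without LGR replicate 4, and at 3 weeks 0.60 (SE 0.22, adjusted p = 0.831, edgeR) without the shallow library.

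In the hypothalamus DRD2 was low, at 20 to 68 counts a library. At 6 weeks it had 3.03, 3.19, 2.93 and 2.36 CPM in LGR birds, against 2.86, 2.92, 3.06 and 2.94 CPM in HGR birds. The values at 3 weeks were 2.35, 1.19, 2.76 and 1.77 CPM in LGR birds, against 2.33, 2.83, 3.801 and 3.10 CPM in HGR birds. At 3 weeks all 4 LGR birds lay below the HGR mean, as for VIPR2 and VIPR1, and the share of all genes with this pattern was not counted. For VIPR1 that mean, 2.74 CPM, included HGR replicate 4 at 4.39 CPM. LGR replicate 3, at 2.50 CPM of VIPR1, lay above HGR replicates 1 and 2, at 1.70 and 2.20 CPM. The log2 fold change of DRD2 was −0.57 (SE 0.29, adjusted p = 0.860, edgeR), or −0.66 without the library rich in mitochondrial counts. At 6 weeks it was −0.02 (SE 0.16, adjusted p = 0.965, edgeR).

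Every pituitary library was above every hypothalamus library for DRD2, which was 11.8-fold higher in the pituitary (log2 fold change 3.56, SE 0.17, adjusted p = 1.25e-17, edgeR). With age, pituitary DRD2 averaged 38.2 ± 14.3 CPM at 6 weeks and 26.6 ± 10.8 CPM at 3 weeks (SD, n = 8 each), with 7 of 8 older birds above the 3-week mean. This difference (log2 fold change 0.51, SE 0.25) did not pass (adjusted p = 0.481, edgeR). In the hypothalamus it was 0.24 (SE 0.16, adjusted p = 0.375, edgeR).

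**Figure D3:**
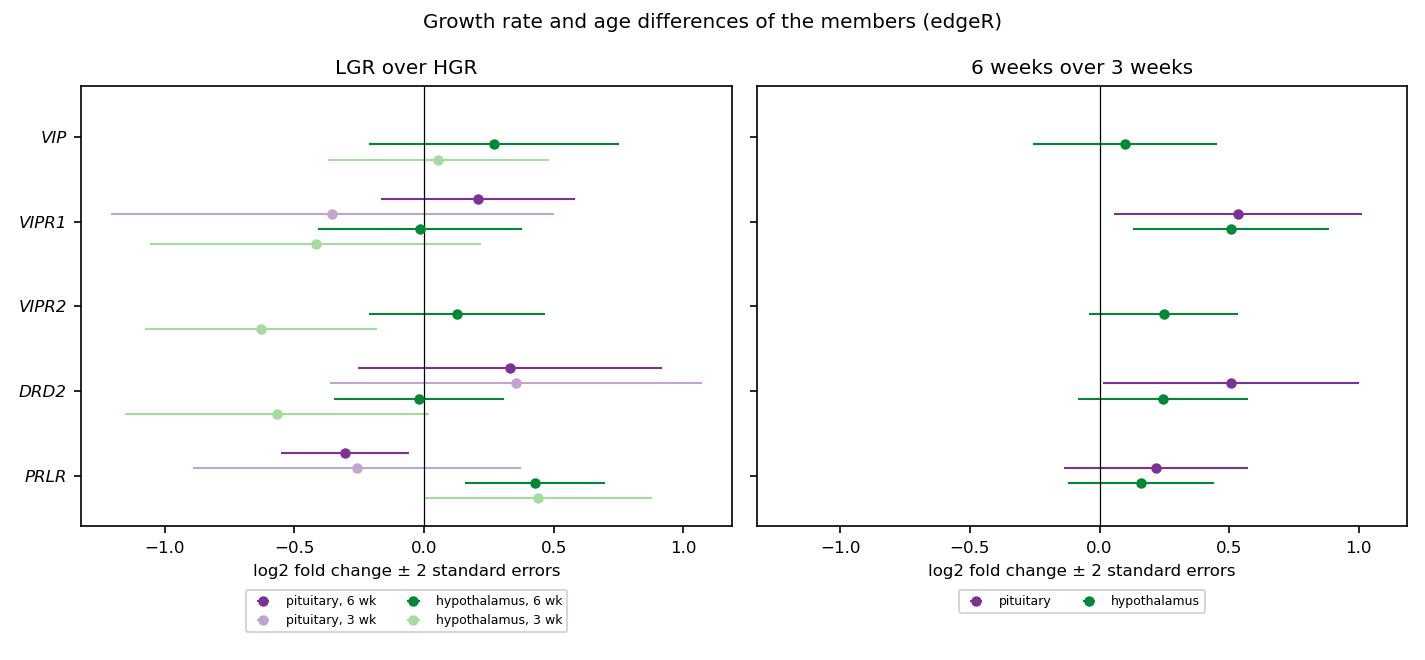
Log2 fold changes of the 5 members with intervals of 2 standard errors (edgeR), LGR over HGR on the left and 6 weeks over 3 weeks on the right, in pituitary (purple) and hypothalamus (green). VIP and VIPR2 did not pass the filter of the pituitary fits and have no value there. PRLR lies left of 0 in the pituitary (−0.30 and −0.26) and right of 0 in the hypothalamus (0.43 and 0.44), and no value was called.

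PRLR had the smallest difference between the tissues of the 5 members. Its growth rate values kept their sign at both ages in each tissue, with −0.057 (SE 0.24) in the 3-week pituitary without the shallow library. Those of DRD2 did so too, but its hypothalamus value at 6 weeks was only −0.02 (SE 0.16). In the hypothalamus PRLR had 35.5, 35.6, 41.7 and 29.6 CPM in LGR birds of 6 weeks, against 29.4, 31.99, 23.1 and 22.5 CPM in HGR birds. The younger birds had 24.2, 45.7, 33.6 and 24.7 CPM in LGR birds, against 18.2, 21.3, 28.7 and 27.3 CPM in HGR birds. All 4 LGR birds lay above the HGR mean at each age, but the ranges overlapped. The log2 fold change was 0.43 (SE 0.13, adjusted p = 0.149, edgeR) at 6 weeks and 0.44 (SE 0.22, adjusted p = 0.857, edgeR) at 3 weeks, where it was 0.22 without LGR replicate 2 and 0.55 without LGR replicate 1, the library rich in mitochondrial counts. By exact permutation p was 0.0571 for the 6-week-old and 0.200 for the 3-week-old birds. None of these values passed. Among all genes 20 were called for growth rate in the hypothalamus at 6 weeks, 0.134% of those tested, and 0 at 3 weeks (0%), where edgeR gave 871 genes an unadjusted p under 0.05 and DESeq2 called 26 and limma 0.

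In the pituitary the values of PRLR ran the other way. At 6 weeks it had 52.1, 44.9, 58.0 and 43.7 CPM in LGR birds, against 58.8, 74.3, 58.6 and 54.6 CPM in HGR birds. Pituitaries of 3 weeks had 45.7, 49.1, 55.2 and 21.7 CPM in LGR birds, against 31.9, 74.7, 48.6 and 53.1 CPM in HGR birds. At 6 weeks all 4 LGR birds lay below the HGR mean and at 3 weeks 3 of 4 did, the lowest being the shallow library. The log2 fold change was −0.30 (SE 0.12, adjusted p = 0.707, edgeR) at 6 weeks and −0.26 (SE 0.32, adjusted p = 0.963, edgeR) at 3 weeks, where it was −0.057 (SE 0.24) without the shallow library. No gene was called for growth rate in the pituitary at either age (0% each), where edgeR gave 1003 genes at 6 weeks and 386 at 3 weeks an unadjusted p under 0.05, DESeq2 called 49 and 5, and limma called 1 and 3.

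After these signs were seen, the difference between the tissues was itself tested over both ages. The LGR over HGR log2 fold change of PRLR was −0.28 (SE 0.18, or −0.18 without the shallow library) in the pituitary and 0.44 (SE 0.14) in the hypothalamus, and their difference was −0.72 (SE 0.24, adjusted p = 0.692, edgeR). With the bird as a block, which ties the libraries of one bird, it was −0.71 (SE 0.16, adjusted p = 0.256, edgeR), and over leaving out each bird it ran from −0.79 to −0.58. No gene was called in this comparison (0%), where 810 had an unadjusted p under 0.05 in edgeR and DESeq2 called 11 and limma 0. The same difference was 0.64 (SE 0.32, adjusted p = 0.983, edgeR) for DRD2. Within single birds, the ratio of pituitary to hypothalamus PRLR was 1.47, 1.26, 1.39 and 1.48 in LGR birds of 6 weeks, against 2.00, 2.32, 2.54 and 2.43 in HGR birds. At 3 weeks it was 1.89, 1.08, 1.64 and 0.879 in LGR birds, against 1.75, 3.51, 1.69 and 1.95 in HGR birds. The ratios did not overlap at 6 weeks, which was also so for 5.31% of all 16169 genes, and overlapped at 3 weeks, and the difference as a whole did not pass the adjustment over all genes.

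PRLR was higher in the pituitary in 15 of 16 birds, by 1.75-fold (log2 fold change 0.81, SE 0.12, adjusted p = 4.90e-07, edgeR), with overlapping ranges of 21.7 to 74.7 CPM in the pituitary and 18.2 to 45.7 CPM in the hypothalamus. The exception was the bird of the shallow library. Age moved PRLR little: the 6 weeks over 3 weeks log2 fold change was 0.22 (SE 0.18, adjusted p = 0.595, edgeR, or 0.11 without the shallow library) in the pituitary and 0.16 (SE 0.14, adjusted p = 0.512, edgeR) in the hypothalamus.

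The partners of the members were followed in 6 lists of pathway genes. In this comparison 53.5% of all genes were called, and the counts of the lists stand beside that share. VIP, VIPR2, GHRHR, TRH, PRLH, DDC, DRD5, LHX3, LHX4 and PITX1 had 0 counts in some libraries of the tissue where they were low, so that the size of their fold changes depends on the prior count. TRH, PRLH, DDC and DRD5, like VIP and VIPR2, were not tested within the pituitary, nor were GHRHR and LHX4 within the hypothalamus. These genes passed the filter of this comparison through the tissue where they were high. Of the VIP and secretin peptide family, 4 of 9 genes had a symbol in the deposited annotation, and between the tissues 1 rose and 3 fell in the pituitary, with a median log2 fold change of −1.37 against 0.05 over all genes tested. GHRHR, the receptor of GHRH on somatotrophs, had 1834 to 8568 counts in pituitary libraries, against 0 to 4 in hypothalamus libraries. GHRH itself was lower in the pituitary (−4.18), as was the receptor of glucagon-like peptide 1, GLP1R (−1.82).

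Of the dopamine genes 6 of 8 were matched, and 5 fell and 1 rose in the pituitary, with a median of −4.23. DDC (−7.63) and the vesicle transporter SLC18A2 (−5.11), which make and store dopamine, were lower in the pituitary, as was the receptor DRD5 (−5.39). The receptors DRD3 (−3.34) and DRD1 (−1.29) were lower there too. Like DRD2, DRD4 was higher in the pituitary (3.89, SE 0.18, adjusted p = 6.97e-18, edgeR). Its group means were 17.1 and 12.7 CPM in LGR and HGR birds of 6 weeks, against 1.41 and 0.858 CPM in the hypothalamus. Of the other releasing factors 3 of 4 were matched: TRH (−7.57), the thyrotropin-releasing hormone, and PRLH (−1.68), the prolactin-releasing peptide, were lower, and the receptor TRHR was higher (3.88).

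Below PRLR, 10 of 11 genes were matched, and 5 rose and none fell in the pituitary, with a median of 0.81, a share of calls close to that of all genes. The feedback inhibitors SOCS2 (4.11), CISH (3.65) and SOCS3 (3.44) were the highest of them. JAK2 (−0.22) and STAT5B (−0.10) lay under the fold threshold. Of the G protein and cyclic AMP genes 12 of 17 were matched, and 1 rose and 5 fell: CREM, a cyclic AMP responsive regulator, was higher (2.03), and ADCY8 (−2.32) and GNAO1 (−2.08) were lower. All 4 matched lineage factors of 7 rose, led by PITX1 (8.20) and LHX3 (7.05).

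**Figure D4:**
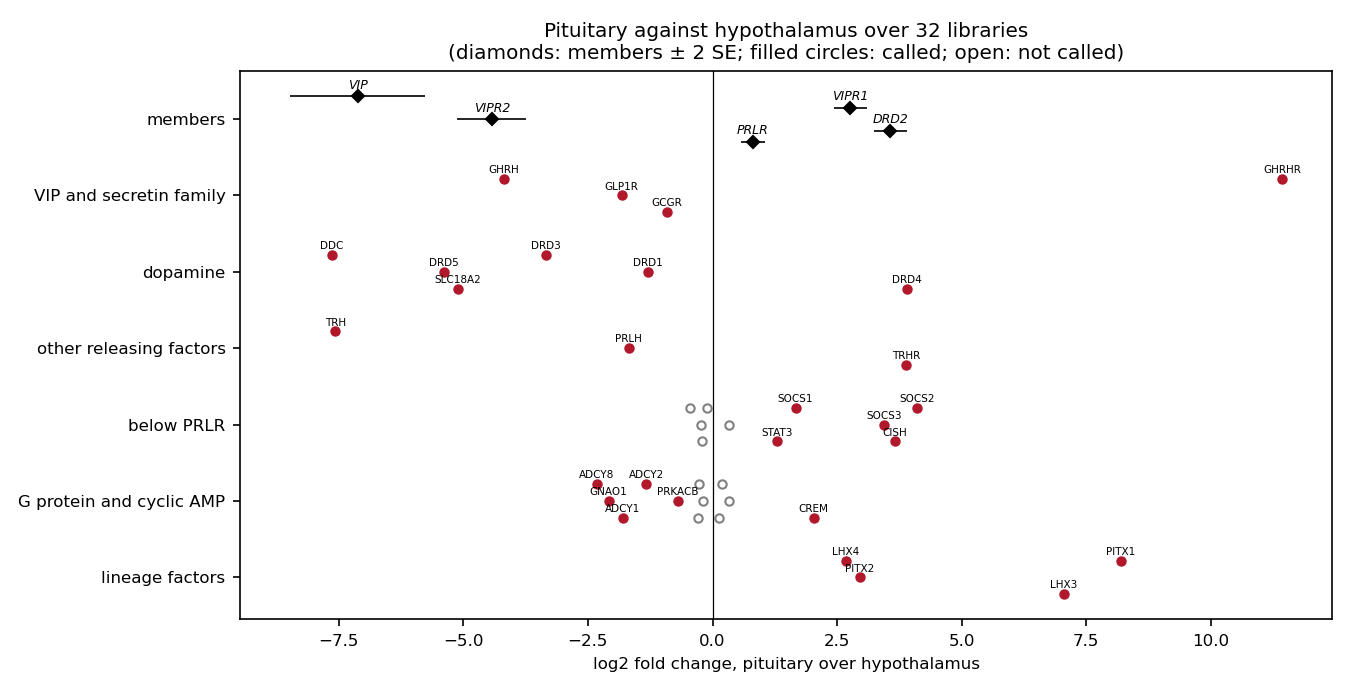
Log2 fold change of pituitary over hypothalamus for the 5 members (diamonds, with 2 standard errors) and for 6 lists of pathway genes (filled, called; open and unnamed, not called). Receptors lie on both sides of 0, with DRD2, DRD4, VIPR1, TRHR and GHRHR to the right and VIPR2 (−4.43), DRD5 (−5.39), DRD3 (−3.34), GLP1R (−1.82), DRD1 (−1.29) and GCGR (−0.92) to the left, and for genes with 0 counts in some libraries the size depends on the prior count.

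Growth rate called no gene of these 6 lists in either tissue at either age, and age called none over both growth groups. Of all genes tested, growth rate called 0.134% in the hypothalamus at 6 weeks and 0% in the other comparisons. Age called 0.0262% in the pituitary and 0.623% in the hypothalamus, so that few calls in these lists go with few calls over all genes. The medians of the lists for growth rate in the hypothalamus at 6 weeks lay between −0.42 and 0.49, against 0.01 over all genes, and at 3 weeks between −0.35 and 0.90. The lineage list stood at −0.42 at 6 weeks, from 1 gene tested, and 0.90 at 3 weeks, from 3 genes, and the other releasing factors at 0.49 and −0.35. In LGR birds alone, TRHR in the hypothalamus rose with age (0.96, SE 0.22, adjusted p = 0.0481, edgeR), where 0.642% of genes were called. In the same comparison HBAD (−2.50) and HBAA (−1.99) were called lower and the pituitary markers had a median of −1.54, and their part in this value was not tested. In HGR birds its value was 0.13 (SE 0.22), and the difference between the growth groups did not pass (0.83, SE 0.31, adjusted p = 0.858, edgeR).

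Relations within birds were computed in place of those planned with PRL. Hypothalamus VIP was set against pituitary VIPR1, DRD2 and PRLR as deviations from the group means of 16 birds, 3 relations in all. For VIPR1 Pearson's r was −0.12 (permutation p = 0.671) and Spearman's rho 0.18 (permutation p = 0.511). For DRD2 r was −0.05 (permutation p = 0.871) and rho 0.03 (permutation p = 0.919), and for PRLR r was −0.11 (permutation p = 0.691) and rho 0.03 (permutation p = 0.927). The adjusted p was 0.871 for each, and without the 2 birds farthest from the median of VIP r was −0.16, −0.04 and −0.19. Within ages r ran from −0.06 to 0.29 at 6 weeks and from −0.27 to −0.06 at 3 weeks, with exact permutation p-values of at least 0.479. At 6 weeks, leaving out the 2 birds farthest from the median of VIP moved r with VIPR1 to 0.83 over 6 birds, so that this value rests on those birds. None of the 3 pooled relations passed.

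Among themselves the members varied together in parts. Over the 16 pituitary libraries VIPR1 and DRD2 had r = 0.75 and PRLR and VIPR1 r = 0.66 on log2 CPM, and 0.78 and 0.63 on deviations from the group means. Without the shallow library, where all 3 genes were lowest, the pooled values were 0.57 and 0.01. Over the 16 hypothalamus libraries VIPR1 and VIPR2 had r = 0.71 and VIPR2 and DRD2 r = 0.65, and 0.62 and 0.33 on deviations from the group means, while pooled VIP had r between −0.16 and 0.25 with the other 4. These values describe libraries that share dissection and depth.

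The genes most like each member were taken by Pearson's r over the 16 libraries of the tissue where the member was higher. For VIP in the hypothalamus they were PDYN (0.79), the precursor of dynorphin peptides, RNF208 (0.78) and ADCY3 (0.75). VIPR2 in the hypothalamus was most like CHST11 (0.93), GDF10 (0.92) and PPP3CC (0.90). In the pituitary VIPR1 was most like ZBTB38, PDPR and TMEM63C (0.96 each), DRD2 most like TTL (0.94), DSCAM (0.93) and TP53BP2 (0.90), and PRLR most like GABRA2 (0.93), MYLK3 (0.92) and PYGO1 (0.91). Pituitary values include the shallow library, and the likeness is a description of these libraries over 9899 genes in the pituitary and 10006 in the hypothalamus.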

How the data were processed

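Per the labels and the study's methods, the authors prepared TruSeq libraries from total RNA and cleaned reads with FastQC, Flexbar and CASAVA 1.8.2. RSEM served for alignment, and the submitters' processing notes also name Bowtie2. The table that the authors deposited holds raw read counts, all whole numbers, for Ensembl genes. Strand handling is not given in the sources used here. The authors also deposited a DESeq2 result table per tissue, from which symbols and coordinates were read. Their mean levels, fold changes and p-values were not used.

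Samples were grouped by label into 8 groups of 4. Bird codes in the labels tie the libraries of a bird. Counts were analysed with edgeR 4.0.16 under R 4.3.3 (TMM, quasi-likelihood test, filterByExpr at min.count 10 and min.total.count 15). Growth rate was fitted within tissue and age, age within tissue, and tissue over all libraries. SE is the log2 fold change over the square root of F. DESeq2 1.42.0, limma 3.58.1 (voomWithQualityWeights), other scalings, filters and blocks served as alternatives, and the tests were tested on simulated data. Replicates are separate birds. No 2 libraries of a group agreed within sampling noise.

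Over all genes, libraries of a bird deviated together from their group means in 16 of 16 pairs (r from 0.11 to 0.48), by the code in the labels. Members and lists were chosen with earlier results of these data known. Of 92 listed genes, 63 had a symbol. The text names all members, the most like genes, and of each list at most 3 called genes in each direction, besides the dopamine receptors. Other genes were picked with their values known. In the pituitary libraries with VIP reads these were DDC, BSX, GAD2, DRD3, SNAP25, GFAP, TRH and others. Elsewhere they were JAK2, STAT5B, CISH, SOCS3 and GHRHR. PRL, the unmatched genes and the 4 relations planned with PRL are not analysed here. No nucleotide or protein sequence is printed.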

Additional observations from a re-analysis of the deposited data

Results flagged for a closer look

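In 3 of 40 sets of 4 libraries (5 genes in 8 groups) a single library lay far from the other 3. Its gap to the nearest of them made up 0.887 to 0.999 of the whole range of the 4, beyond a limit that chance passes in about 1 set in 20. VIP in the pituitary of HGR 6-week-old replicate 4 was 26.95 CPM, with 0 to 1.60 CPM in the other 3 birds. VIP in the pituitary of LGR 6-week-old replicate 1 was 23.15 CPM, with 0.131 to 0.144 CPM in the other 3. VIPR2 in the pituitary of LGR 3-week-old replicate 3 was 1.75 CPM from 27 counts, with 0 to 0.197 CPM in the other 3.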

How the results depend on the processing

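Of 648 alternative fits of a member other than leaving out a bird or library, 638 kept direction and side of the threshold, 9 changed sign and 1 became a call. Sign changes, none of a called value, were with the replicate block VIP with age in HGR hypothalamus (0.000844) and PRLR age by growth rate in hypothalamus (0.00535), with limma VIPR1 age by tissue (−0.11) and VIPR1 growth rate over both ages in pituitary (0.045), without the shallow library PRLR (−0.042) and VIPR1 (−0.11) age by tissue, without the 2 libraries with VIP reads VIPR2 growth rate by tissue (−0.045), and without all 3 PRLR with age in LGR pituitary (−0.027) and VIPR1 growth rate over both ages in pituitary (0.15). The call was VIP age by tissue with DESeq2 (5.98, 1 member). The fits without the shallow library, without the 2 libraries with VIP reads and without all 3, and the growth rate contrasts over ages and by tissue, were added after seeing the data.

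Counts of called genes over all genes moved. With DESeq2 they were 49 and 5 for growth rate in pituitary at 6 and 3 weeks, 163 and 26 in hypothalamus, 166 and 192 for age in pituitary and hypothalamus, 27 and 22 for age by growth rate there, and 40 for age by tissue. With limma they were 1 and 3 for growth rate in pituitary, 107 and 219 for age, 7 for age by growth rate in hypothalamus and 27 for age by tissue. Without the filter age in hypothalamus gave 63 and age by growth rate 2. Growth rate in hypothalamus gave 0 and 4 at 6 and 3 weeks in one fit of 16 libraries. Age by tissue gave 5 with RLE and with upper-quartile scaling, 6 with the stricter filter, 0 without the 2 libraries and 16 without the shallow one. Without all 3, age in pituitary gave 1.

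Replicate numbers do not pair birds (mean r from −0.09 to 0.02). With the replicate block the count was 3 for growth rate in hypothalamus at 6 weeks, 1 for age in pituitary and 0 for age by growth rate in hypothalamus, and with the bird block 2 for age by tissue. No block changed a member's call. The cause of these shifts was not tested.

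Leaving out each library in turn, counts ran over 0 to 1 for growth rate in pituitary at both ages and hypothalamus at 3 weeks, 0 to 24 in hypothalamus at 6 weeks, 0 to 26 and 27 to 354 for age in pituitary and hypothalamus, 0 to 2 and 0 to 8 for age by growth rate, 8652 to 8752 for tissue and 0 to 14 for age by tissue. Members called ran from 0 to 1 for age in hypothalamus, were 5 for tissue and 0 elsewhere. Of 1168 such fits of a member, 1116 kept direction and side, 51 changed sign, none of them called, and VIPR1 with age in hypothalamus became a call in 1. The ranges that crossed 0 were, for growth rate, DRD2 in pituitary at 6 weeks (−0.010 to 0.56), VIP in hypothalamus at 3 weeks (−0.076 to 0.23), and VIPR1 (−0.17 to 0.095) and DRD2 (−0.069 to 0.062) in hypothalamus at 6 weeks, and VIPR1 in pituitary over both ages (−0.18 to 0.071). For age they were PRLR in LGR pituitary (−0.011 to 0.33) and, in HGR hypothalamus, VIP (−0.16 to 0.17) and DRD2 (−0.13 to 0.11). For age by growth rate they were PRLR (−0.28 to 0.12) and DRD2 (−0.38 to 0.26) in pituitary and PRLR in hypothalamus (−0.14 to 0.20). For growth rate by tissue they were VIP (−2.95 to 1.70), VIPR1 (−0.0054 to 0.24) and VIPR2 (−0.15 to 1.18), and for age by tissue PRLR (−0.034 to 0.20), VIPR1 (−0.12 to 0.14) and VIPR2 (−1.86 to 0.11). The relation of hypothalamus VIP with pituitary DRD2 ran from r = −0.11 to 0.050. Low counts limit VIP and VIPR2 in the pituitary and DRD2 and VIPR1 in the hypothalamus.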

Other observations

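CISH, an inhibitor induced by cytokine receptors such as PRLR and the growth hormone receptor, was picked with its values known. In the hypothalamus it had 6.86, 6.38, 6.79 and 5.81 CPM in LGR birds of 6 weeks, against 5.35, 4.30, 4.79 and 2.22 CPM in HGR birds, and the groups did not overlap, which was also so for 11.1% of the 14944 genes tested, while 0.134% were called. At 3 weeks it had 5.90, 11.2, 14.1 and 11.03 CPM in LGR birds, against 4.97, 5.84, 6.15 and 3.98 CPM in HGR birds, and the groups overlapped. The log2 fold change was 0.65 (SE 0.24, adjusted p = 0.197, edgeR) at 6 weeks and 1.02 (SE 0.25, adjusted p = 0.760, edgeR) at 3 weeks, so that neither was called. SOCS3, another inhibitor of this family, had 1.24 (SE 0.36, adjusted p = 0.123, edgeR) and 0.89 (SE 0.40, adjusted p = 0.856, edgeR). Both genes were higher in the pituitary than in the hypothalamus. The infundibular, pituitary and thalamus marker sums of these hypothalamus libraries are given above, and their part in these values was not tested.

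GHRHR in the pituitary averaged 192 ± 28.6 CPM in LGR birds and 319 ± 55.8 CPM in HGR birds of 6 weeks (SD, n = 4 each). The log2 fold change was −0.73 (SE 0.15, adjusted p = 0.574, edgeR) and did not pass. At 3 weeks it was −0.03 (SE 0.36).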
